A study of Mus musculus with 6 samples.

Results

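The proteasome is the protease complex that degrades proteins tagged with ubiquitin. Its barrel-shaped 20S core is built of α rings and β rings, and 3 of the β subunits (Psmb5, Psmb6 and Psmb7) carry the catalytic threonine. The 19S regulatory particle caps the core. Its base of ATPases unfolds substrates, and its lid removes ubiquitin chains. Dedicated chaperones assemble both parts and are absent from the finished particle, and other activators can replace the 19S cap. In T cells the catalytic subunits can be exchanged for those of the immunoproteasome, Psmb8, Psmb9 and Psmb10, which were left out of the set.

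The set described here holds every probe whose annotated symbol begins with Psma, Psmb, Psmc, Psmd, Psme, Psmf or Psmg and a digit, without the immunoproteasome subunits. This gave 81 of the 45281 probes on the array and 46 of its 19057 genes. Among them 44 encode subunits, activators or assembly chaperones. The other 2 were taken in by their symbols, although Psmc3ip acts in meiotic recombination and Psme3ip1 encodes a partner of the activator Psme3. The rule used no measured value.

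Illumina bead arrays gave the transcript levels of regulatory T cells (Treg). The cells came from steady-state mice and were sorted as positive for the T cell receptor β chain, CD4 and Foxp3. cLP Treg came from the colon lamina propria (3 arrays) and MLN Treg from the mesenteric lymph node (3 arrays). Both groups came from C57BL/6 mice of the genotype Foxp3gfp, and the age is not given in the sources used here. The labels do not tell whether replicates stem from different mice. The p-values therefore cover the spread among these arrays, which may be technical.

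The share of probes detected ran from 34.29% to 35.43% in cLP samples and from 32.68% to 35.15% in MLN samples. Signal over background, the median signal of detected over undetected probes, was lower in cLP samples (2.61 to 3.18) than in MLN samples (3.33 to 4.10), and its part in the results below was not tested. Of 9 measured markers of Treg and CD4 T cells 3 were higher in cLP Treg (Ikzf2 by 2.22, Tnfrsf18 by 1.26 and Ctla4 by 1.05), and Il2ra fell by 1.67. Foxp3 differed by -0.01 (limma, adjusted p = 0.986). Cd3d and Cd3e differed by -0.67 and -0.60 with cLP values wholly below MLN values, and neither passed. Cd3g and Cd4 differed by -0.22 and -0.07 with overlapping groups. Of 10 listed markers of stroma and endothelium, 5 were measured and 3 of these were higher in cLP Treg, with a summed intensity of 2170 to 3258 in cLP samples and 772 to 994 in MLN samples. Acta2 was higher by 5.95, Col3a1 by 3.35 and Sparc by 1.42, and these 3 genes were detected on no MLN array. Pecam1 was detected on every array, at 9.76, 9.29 and 9.29 in MLN samples, and differed by -0.11. Col1a2 differed by 0.57, and neither of these passed. Of 11 measured heat shock genes, 4 were higher (Hspa1a by 6.69, Hspa1b by 4.58, Hspb1 by 3.03 and Bag3 by 1.65). Hspa1a was detected on 1 MLN array. The summed intensity of the 11 genes was 78154 to 115460 in cLP samples and 57696 to 71896 in MLN samples. Of 3 measured B cell markers, 1 was lower, with sums of 126 to 176 in cLP samples and 364 to 657 in MLN samples. Of 3 measured markers of macrophages, dendritic cells and granulocytes 2 were lower (Lyz1 and Lyz2), with sums of 105 to 211 in cLP samples and 219 to 400 in MLN samples. The 2 measured markers of innate lymphoid and mast cells went opposite ways. Kit was higher by 2.14 and was detected on 1 MLN array, whereas Klrb1c differed by -0.53 with groups apart and did not pass. Their sums were 151 to 419 in cLP samples and 94.3 to 173 in MLN samples. None of 3 measured epithelial markers passed, with sums of 214 to 1039 in cLP samples and 330 to 459 in MLN samples. Krt8 differed by 1.62 with groups apart (limma, adjusted p = 0.0544), Cdh1 by 0.62 and Epcam by -0.70. The 1 measured CD8 T cell marker, Cd8b1, was detected on every array and differed by -0.78 with groups apart, without passing (adjusted p = 0.0610). Its intensity was 2375 to 4051 in cLP samples and 4550 to 5576 in MLN samples. Of 6 plasma cell markers 1 was measured, Jchain, which was higher and was detected on no MLN array. The part of these signals in the differences below was not tested.

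Probes entered the test if 3 or more of the 6 arrays detected them (detection p under 0.05), and a gene was represented by its brightest tested probe. Of the 81 probes 64 were tested, standing for 39 of the 46 genes. For 16 of the 17 others the signal was not well above background on any array, and 1 probe of Psmd2 was detected on 2 MLN arrays. The 7 genes without a tested probe were Psma1, Psma3, Psmb11, Psmd2, Psmd3, Psmd5 and Psme2. Psmb11 is the β subunit of the thymic cortex, whereas Psma1, Psma3, Psmd2, Psmd3 and Psmd5 are subunits or chaperones of general use. Psme2 belongs to the activators. No level is given for these genes. Differences are cLP Treg minus MLN Treg in normalised log2 intensity, from limma with Benjamini-Hochberg adjustment over all 9157 tested genes and a threshold of 0.05.

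Most tested genes of the proteasome itself differed by less than 2-fold between the tissues, and 3 of the 4 Psmg chaperones, which help build the 20S core, were lower in the colon. Of the 39 tested genes 4 passed the threshold, 1 higher (Psmd11) and 3 lower (Psmg1, Psmg2 and Psmg3) in cLP Treg. Over all tested genes 32.5% passed, 12.1% higher and 20.4% lower. The median difference of the 39 genes was -0.22, and that of all genes was -0.21. The 3 cLP values lay wholly above the 3 MLN values in 2 members and wholly below them in 13, and groups were apart in 47.0% of all genes. In sorted bulk samples a smaller share of cells with a transcript and less of it per cell cannot be told apart.

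For the 37 tested subunits, activators and chaperones the median absolute difference was 0.288, and 0.607 over all tested genes. The 95% interval of the difference (for each gene alone) lay wholly within a 2-fold change either way in 24 of the 37, and in 30.5% of all tested genes. These intervals were counted with quantile normalisation alone. A change of at least 2-fold was seen in 4 of the 37, and in 31.8% of all tested genes. As a description, 28 of the 37 differences lay below 0, and 61.3% over all genes.

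**Figure D1:**
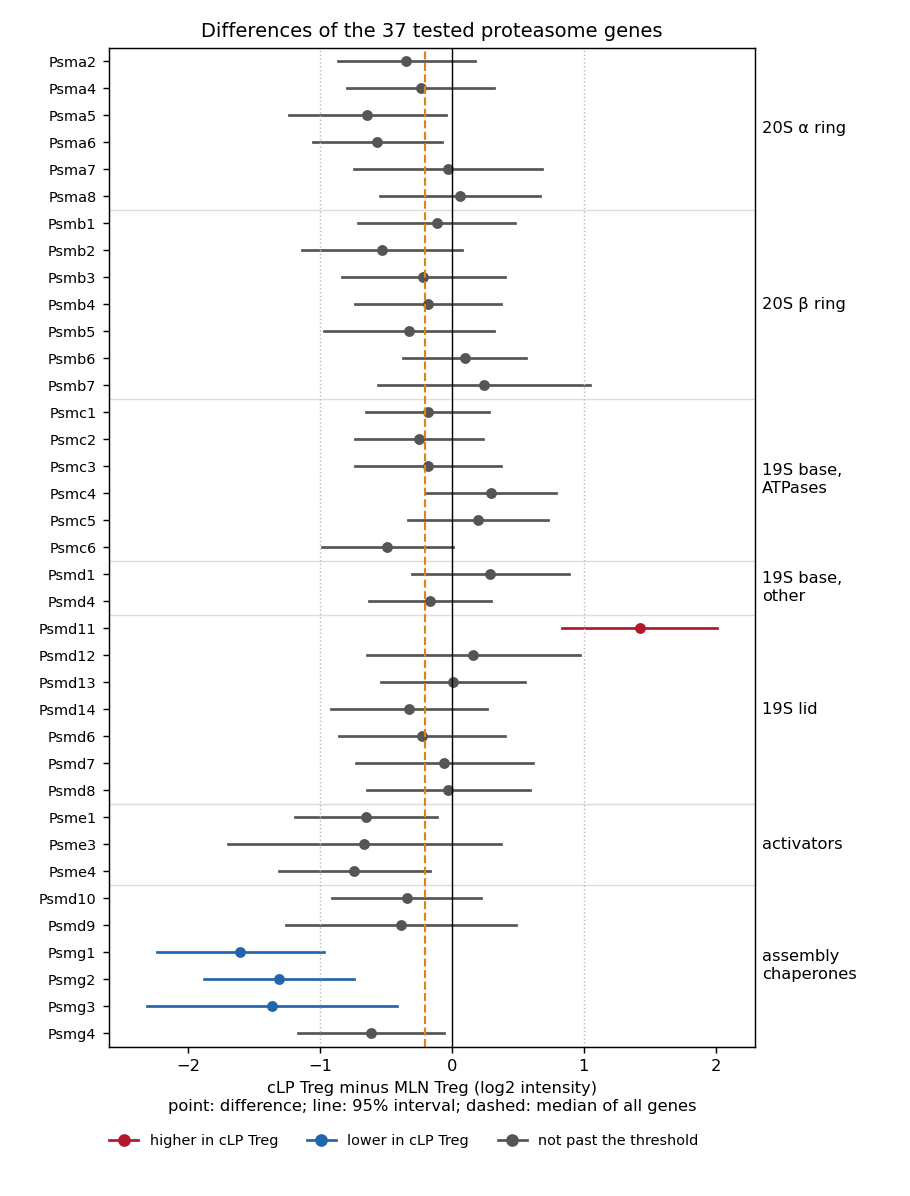
Differences between cLP Treg and MLN Treg (x axis, log2 intensity) for the 37 tested proteasome genes, grouped by role. Points are differences, lines are 95% intervals from limma, the dashed line is the median of all genes (-0.21) and the dotted lines mark a 2-fold change. Psmd11 stands to the right at 1.42 and Psmg1, Psmg2 and Psmg3 to the left at -1.61, -1.31 and -1.37, while the other differences run from -0.74 to 0.29.

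Promoters of 38 of the 46 genes were found in a RefSeq table (GRCm38.p6), and the 250 bases before the start of the gene were searched. The windows below belong to the 2 chaperones and the lid subunit in the table that passed the threshold, and to a pair of catalytic subunits that did not. Capitals mark 3 motifs on either strand: the core of the antioxidant response element TGACNNNGC, which Nfe2l1 and Nfe2l2 can bind, the CCAAT box, and the ETS core CCGGAA, which was added after these windows had been read. Sequences run in the direction of the gene. Psmg1 lies at chr16:95990961-95991210 and Psmg3 at chr5:139826895-139827144, both on the minus strand. Psmd11 lies at chr11:80428365-80428614 on the plus strand, Psmb5 at chr14:54617996-54618245 on the minus strand and Psmb6 at chr11:70525107-70525356 on the plus strand.
Psmg1: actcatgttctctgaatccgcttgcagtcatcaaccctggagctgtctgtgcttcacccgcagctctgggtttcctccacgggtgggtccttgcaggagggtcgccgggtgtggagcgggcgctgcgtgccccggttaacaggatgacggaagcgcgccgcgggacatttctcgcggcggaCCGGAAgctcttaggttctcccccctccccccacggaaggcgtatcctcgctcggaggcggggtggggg
Psmg3: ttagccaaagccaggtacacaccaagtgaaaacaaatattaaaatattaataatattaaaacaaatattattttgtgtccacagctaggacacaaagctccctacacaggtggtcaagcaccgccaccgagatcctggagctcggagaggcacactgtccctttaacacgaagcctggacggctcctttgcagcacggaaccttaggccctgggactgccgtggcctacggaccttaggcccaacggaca
Psmd11: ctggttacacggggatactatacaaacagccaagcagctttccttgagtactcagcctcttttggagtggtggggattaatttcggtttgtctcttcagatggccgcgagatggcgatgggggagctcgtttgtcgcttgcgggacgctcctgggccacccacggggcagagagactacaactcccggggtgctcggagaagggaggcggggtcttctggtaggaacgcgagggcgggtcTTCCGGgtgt
Psmb5: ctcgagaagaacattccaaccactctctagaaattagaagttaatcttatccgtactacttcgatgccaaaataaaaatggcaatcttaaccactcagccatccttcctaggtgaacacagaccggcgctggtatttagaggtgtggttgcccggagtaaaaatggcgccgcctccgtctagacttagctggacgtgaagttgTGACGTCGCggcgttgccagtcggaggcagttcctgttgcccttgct
Psmb6: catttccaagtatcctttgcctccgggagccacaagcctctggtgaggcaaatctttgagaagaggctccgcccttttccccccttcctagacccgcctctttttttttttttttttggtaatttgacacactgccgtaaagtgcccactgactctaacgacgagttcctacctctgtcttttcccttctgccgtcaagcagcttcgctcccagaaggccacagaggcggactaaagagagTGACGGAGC

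The antioxidant response core was found in the windows of 5 of the 38 genes (Psmb5, Psmb6, Psmc6, Psmd9 and Psmd12), and in 10.2% of 32851 windows in the table. The CCAAT box was found in 15 of the 38, and in 33.8% of all windows. The ETS core was found in 17 of the 38, and in 12.0% of all windows. The 17 hold Psmg1 and Psmd11, which moved in opposite directions and whose windows had been read before this motif was added. Members were counted by gene, with a match in any window of the gene, and the whole table by single windows. The member counts and the shares of windows are therefore not alike in unit. None of the 3 motifs was found in the window of Psmg3. A match is a description of the letters and not a site.

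The assembly chaperones Psmg1 and Psmg2 form a pair that seeds the α ring of the core. Psmg1 (probe ILMN_2874662) had values of 6.43, 6.67 and 7.21 in cLP samples 1 to 3, against 8.45, 8.56 and 8.13 in MLN samples 1 to 3. Every cLP value lay below every MLN value, and the groups did not overlap. Psmg1 fell by 1.61 ± 0.27 (difference ± standard error), or 3.04-fold (limma, adjusted p = 0.00439). Psmg2 (ILMN_3153450) had values of 8.65, 8.55 and 9.04 in cLP samples, against 10.33, 9.996 and 9.85 in MLN samples. The groups were again apart, and Psmg2 fell by 1.31 ± 0.25, or 2.49-fold (adjusted p = 0.00649). All 3 tested probes of Psmg2 passed in a fit over single probes, with differences of -1.43, -1.32 and -1.31. Both genes passed under each of the 16 alternative settings tried, with adjusted p-values of 0.00187 to 0.0242 for Psmg1 and 0.00159 to 0.0339 for Psmg2.

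Psmg3 and Psmg4 form the other pair, which acts on the same ring. Psmg3 (ILMN_2695599) had values of 7.60, 6.42 and 7.95 in cLP samples, against 8.87, 8.84 and 8.35 in MLN samples. The groups did not overlap, but cLP sample 2 lay far below the other cLP samples, with an SD of 0.80 in cLP samples and 0.30 in MLN samples. Psmg3 fell by 1.37 ± 0.41, or 2.58-fold (adjusted p = 0.0372). Its call ended without cLP sample 1 or 2 (adjusted p = 0.0523 and 0.0548) and without MLN sample 1, 2 or 3 (0.116, 0.113 and 0.0650), and its adjusted p ran between 0.00853 and 0.116 in all settings tried. Without cLP sample 2 its difference was -0.92. Psmg4 (ILMN_1223369) had values of 7.08, 6.62 and 6.89 in cLP samples, against 7.53, 7.67 and 7.22 in MLN samples. Its cLP values also lay below its MLN values, but the difference of -0.61 ± 0.24 did not pass (adjusted p = 0.0856; 0.0213 to 0.240 over its alternatives). It passed with median scaling and in the authors' deposited values (differences of -0.85 and -0.45).

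The 2 tested chaperones of the 19S base did not pass. Psmd10, also known as gankyrin, differed by -0.34 (95% interval -0.91 to 0.22), with all 3 of its tested probes below 0, and passed with median scaling (-0.79) and in the authors' deposited values (-0.68; adjusted p = 0.0312 to 0.717 over its alternatives). Psmd9 differed by -0.39 (-1.26 to 0.49), with cLP values of 5.64, 7.15 and 6.22 around a narrow MLN range of 6.62 to 6.79. Pomp, a further chaperone of core assembly whose symbol lies outside the rule and which was picked after its values were seen, differed by 0.0036 (95% interval -0.52 to 0.53, adjusted p = 0.993), a difference of either sign across the scalings tried.

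**Figure D2:**
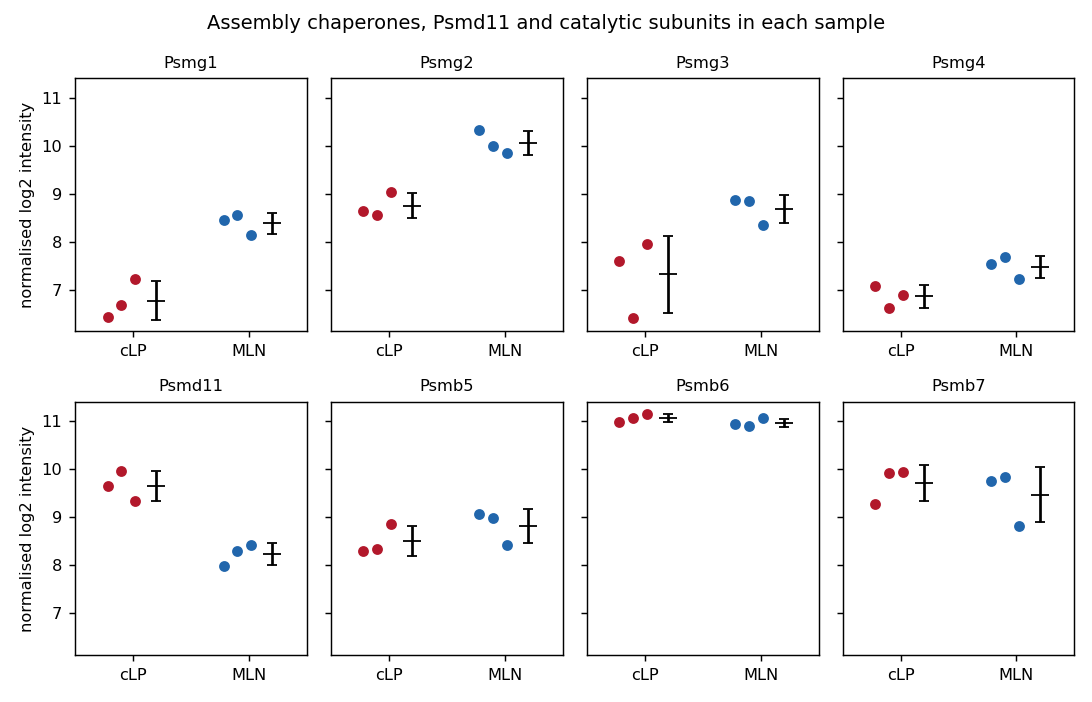
Normalised log2 intensity (y axis) of 8 genes in the 3 cLP Treg samples (red, left) and the 3 MLN Treg samples (blue, right), with the mean ± SD beside the points; levels are not comparable between genes. The groups are apart in Psmg1, Psmg2, Psmg3, Psmg4 and Psmd11, and overlap in Psmb5, Psmb6 and Psmb7.

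No gene of the 20S core passed among the 13 tested, and 2 had an unadjusted p under 0.05 (Psma5 and Psma6), as did 3971 of all 9157 genes. In the α ring, which gates the entry to the core, differences of 6 genes ran from -0.64 (Psma5) to 0.06 (Psma8), with a median of -0.29. Psma5 and Psma6 had cLP values wholly below their MLN values and missed the threshold (adjusted p = 0.0931 and 0.0763). Both passed as lower with median scaling (-0.99 and -0.87) and in the authors' deposited values (-0.90 and -0.52). The other tested probe of Psma5 differed by -0.19 with overlapping groups (limma, adjusted p = 0.715 among single probes). With the mean of its probes Psma5 differed by -0.42 (adjusted p = 0.212). Psma7 lay near no difference. Its values were 11.33, 10.34 and 10.54 in cLP samples, against 10.71, 11.002 and 10.59 in MLN samples, and its 2 tested probes differed by -0.03 and 0.10. Psma8 is the α subunit of the germ line, and its probe was detected on 2 cLP arrays and 1 MLN array and was not well above background on the others.

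In the β ring differences of 7 genes ran from -0.53 (Psmb2) to 0.24 (Psmb7), with a median of -0.18. Psmb5 carries the chymotrypsin-like site. It had values of 8.31, 8.33 and 8.86 in cLP samples, against 9.07, 8.996 and 8.42 in MLN samples, and differed by -0.33 (95% interval -0.97 to 0.32, adjusted p = 0.411). Psmb6, which carries the caspase-like site, had values of 10.98, 11.06 and 11.16 in cLP samples, against 10.94, 10.91 and 11.07 in MLN samples. It differed by 0.10 (-0.37 to 0.56, adjusted p = 0.756), a difference that turned to -0.34 with median scaling and -0.25 in the authors' deposited values. Psmb7, which carries the trypsin-like site, had values of 9.27, 9.93 and 9.94 in cLP samples, against 9.75, 9.85 and 8.82 in MLN samples. It differed by 0.24 (-0.56 to 1.05, adjusted p = 0.637), or by -0.25 and -0.14 in those scalings, and its 4 tested probes ran from 0.01 to 0.24. The groups overlapped in all 3 catalytic subunits. The intervals of Psmb5 and Psmb6 lay within a 2-fold change, and that of Psmb7 reached slightly beyond it.

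Of their 3 counterparts in the immunoproteasome 1 passed, against 32.5% of all tested genes. Psmb10, which replaces Psmb7, fell by 1.56 ± 0.25, at 10.50, 9.995 and 9.97 in cLP samples against 11.77, 11.90 and 11.48 in MLN samples (adjusted p = 0.00344). Psmb8 and Psmb9 differed by -0.74 and -0.60 with groups apart, but missed the threshold (adjusted p = 0.0708 and 0.0871). Both passed with median scaling (-1.04 and -1.01; adjusted p = 0.0150 and 0.0124) and in the authors' deposited values (-0.63 and -0.91; 0.0257 and 0.00881), with ranges over their alternatives of 0.0150 to 0.187 and 0.00881 to 0.280. The other tested probe of Psmb8 differed by -0.22 (adjusted p = 0.476 in the limma fit over single probes). With the mean of its probes Psmb8 differed by -0.48 (adjusted p = 0.136). The other tested probe of Psmb10 fell by 1.83 (adjusted p = 0.00171 among single probes). Whether Psmb10 and Psmb7 differ in their change was not tested.

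With quantile normalisation none of the 6 ATPases of the 19S base passed, and each of their 95% intervals lay within a 2-fold change. Their differences ran from -0.49 (Psmc6, adjusted p = 0.121) to 0.29 (Psmc4, adjusted p = 0.338), with a median of -0.18. The difference of Psmc4 turned to -0.13 with median scaling and -0.054 in the authors' values. Psmc1 and Psmc6 passed as lower with median scaling (-0.67 and -0.97) and in the authors' values (-0.54 and -0.75). Psmc3 passed as lower in the authors' values alone (-0.55). The ubiquitin receptor Psmd4 differed by -0.17, with cLP values of 13.80, 13.60 and 13.74 just below MLN values of 13.82, 13.92 and 13.90. Psmd1, the scaffold of the base, differed by 0.29 through its reported probe without passing.

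In the lid 1 of 7 tested genes passed, against 32.5% of all tested genes. Psmd11, which clamps the lid to the core particle, had values of 9.66, 9.96 and 9.34 in cLP samples, against 7.98, 8.29 and 8.42 in MLN samples (ILMN_1214057). Every cLP value lay above every MLN value, and Psmd11 rose by 1.42 ± 0.25, or 2.68-fold (adjusted p = 0.00530). A second probe (ILMN_2888116) rose by 1.096, at 7.82, 8.23 and 7.71 in cLP samples against 6.71, 6.98 and 6.79 in MLN samples (adjusted p = 0.0119 among single probes), and its remaining probe was detected on no array. Psmd11 passed under each of the 16 alternatives (adjusted p = 0.00324 to 0.0288). The other 6 lid genes ran from -0.33 (Psmd14, the ubiquitin-removing enzyme of the lid) to 0.16 (Psmd12), and none of them passed (adjusted p = 0.367 to 0.988). The other tested probe of Psmd14 differed by 0.22, and the mean of its probes by -0.05.

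Psmd13 and Psmd8 stood closest to no difference in the lid. Psmd13 had values of 12.12, 12.64 and 12.51 in cLP samples, against 12.59, 12.26 and 12.40 in MLN samples, with a difference of 0.01 (95% interval -0.54 to 0.55). Psmd8 had values of 10.99, 11.23 and 10.77 in cLP samples, against 11.28, 11.20 and 10.61 in MLN samples, with a difference of -0.03 (-0.65 to 0.59). The groups overlapped in both genes. Psme3ip1, kept apart from the subunits, lay as close, with values of 10.80, 10.59 and 11.73 in cLP samples, against 11.11, 11.19 and 10.86 in MLN samples (difference -0.01). The signs of these small differences changed with the scaling or with a sample left out.

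Besides Psmd14, whose probes did not pass, Psmd7 was the lid gene with probes of opposite sign. It was read by 3 tested probes, chosen for display after their values were seen. The brightest (ILMN_2630438) gave 11.09, 11.16 and 11.92 in cLP samples, against 11.69, 11.36 and 11.30 in MLN samples, a difference of -0.06. A probe annotated to another transcript record of the gene (ILMN_1253915) gave 8.74, 9.33 and 8.84 in cLP samples, against 7.23, 6.81 and 7.22 in MLN samples. It rose by 1.89 ± 0.26 in the fit over 13538 single probes (limma, adjusted p = 0.00203), with groups apart. The remaining probe (ILMN_1220284) differed by 1.23 with overlapping groups (adjusted p = 0.103). With the mean of its probes in place of the brightest, Psmd7 rose by 1.02 (adjusted p = 0.00796; 0.00796 to 0.945 over its alternatives).

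Of 17 genes with several tested probes, all probes had the same sign in 11, and no gene had probes past the threshold in opposite directions. In the fit over single probes 8 of the 64 member probes passed, 3 higher and 5 lower, against 32.5% of all probes (14.0% higher and 18.4% lower). Psmd1 had the next widest spread after Psmd7, with probes at 0.29, 0.49 and -0.78, none of which passed.

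**Figure D3:**
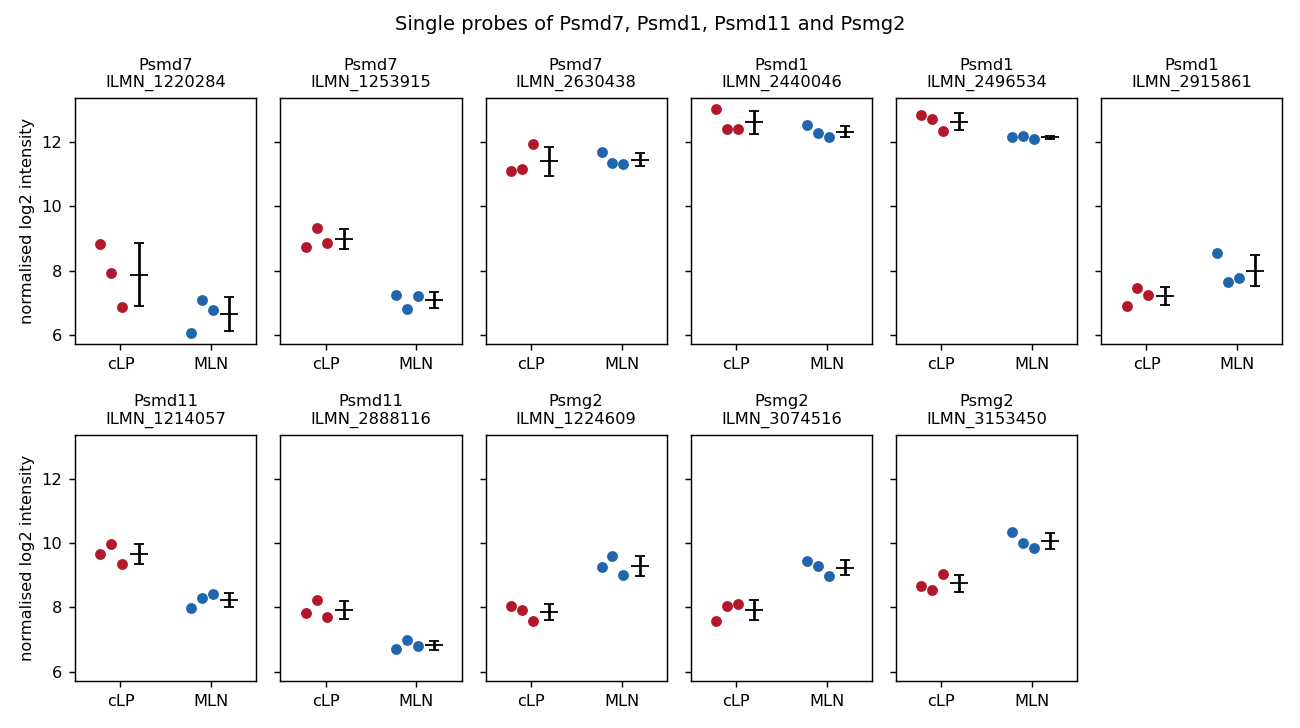
Normalised log2 intensity (y axis) of every tested probe of Psmd7, Psmd1, Psmd11 and Psmg2 in cLP Treg (red, left) and MLN Treg (blue, right), with the mean ± SD beside the points. The probes of Psmd11 (1.42 and 1.096) and those of Psmg2 (-1.31 to -1.43) move together, whereas those of Psmd7 run from -0.06 to 1.89.

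The 3 tested activators lay below 0 and none passed. Psme4, the large single-chain activator PA200, had values of 9.72, 10.03 and 9.72 in cLP samples, against 10.80, 10.20 and 10.68 in MLN samples. Its groups did not overlap, and its difference of -0.74 ± 0.25 missed the threshold (adjusted p = 0.0536; 0.0111 to 0.183 over its alternatives, of which 7 of 16 passed). Psme1, a subunit of the interferon-inducible PA28 ring, had values of 12.82, 12.38 and 12.91 in cLP samples, against 13.23, 13.44 and 13.40 in MLN samples. It differed by -0.65 ± 0.23 (adjusted p = 0.0655; 0.00814 to 0.261), with groups apart, and its other probe differed by -0.18 with overlapping groups. Psme3, which forms a ring in the nucleus, differed by -0.66 ± 0.45 with a wide spread in cLP samples (SD 0.89). Without cLP sample 3 it passed, with a difference of -1.16 (adjusted p = 0.0239; 0.0239 to 0.651 over its alternatives).

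The number of members called lower moved with the scaling between arrays and with the background correction. Quantile normalisation gave a median of -0.21 over all genes, median scaling -0.51 and the authors' deposited values -0.30. The median of the members moved with it, to -0.55 and -0.45, or -0.04 and -0.15 relative to that of all genes. With median scaling 12 members were lower (33.2% of all genes) and in the authors' deposited values 13 (30.4%), against 3 with quantile normalisation. The authors' values differ in scaling and also lack the background correction, and quantile normalisation without that correction gave 5. Over all genes the calls split into 831 higher and 3042 lower with median scaling, 882 and 2780 in the authors' values, 1364 and 1342 with the median difference set to 0, and 1110 and 1864 with quantile normalisation. In the first pair of settings, Psma5, Psma6, Psmb2, Psmc1 and Psmc6 of the core and base were among them, with Psmc3 in the authors' values as well. With the median difference of all genes set to 0, 2 members were lower (14.7% of all genes) and 1 higher. Psmg1 and Psmg2 were lower and Psmd11 was higher in each of these settings.

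Other genes of the ubiquitin pathway were read from lists by function. Among 9 tested partners of the proteasome outside the rule 2 fell and none rose, against 20.4% and 12.1% of all tested genes. Ube3c, a ubiquitin ligase that acts on substrates stalled at the proteasome, fell by 1.23 ± 0.31 (adjusted p = 0.0212). Uchl5, a ubiquitin-trimming enzyme of the 19S particle, fell by 1.04 ± 0.24 through its brightest probe (adjusted p = 0.0144). Its 3 other probes differed by -0.42, -0.37 and 0.46 and did not pass, and with the mean of its probes the difference was -0.34 (adjusted p = 0.336; 0.00162 to 0.336 over its alternatives). Leaving out MLN sample 1 or 2 also took its call away (adjusted p = 0.0519 and 0.0515). Leaving out any 1 of the MLN samples took the call of Ube3c away (adjusted p = 0.0675, 0.0699 and 0.0654; 0.00352 to 0.0699 in all settings).

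Among 6 tested regulators 1 rose and 1 fell, against 12.1% and 20.4% of all tested genes. Foxm1, a transcription factor of the cell cycle, rose by 1.34 ± 0.35 (adjusted p = 0.0218). Its call ended without any sample but cLP sample 3 (0.00403 to 0.0850 over its alternatives). The other tested probe of Foxm1, detected on 2 MLN arrays, rose by 1.92 with groups apart (limma, adjusted p = 0.0103 among single probes). With the mean of its probes Foxm1 rose by 1.63 (adjusted p = 0.0109). Ngly1, the deglycosylase that activates the transcription factor Nfe2l1, fell by 0.996 ± 0.23 (adjusted p = 0.0137), a call lost when MLN sample 1 or 3 was left out (adjusted p = 0.0511 and 0.0533; 0.00570 to 0.0533). Nfe2l1, which raises proteasome genes when the proteasome is inhibited, was picked after its values were seen. It differed by -0.02 (95% interval -0.53 to 0.48, adjusted p = 0.954), with a sign that turned when the median difference was set to 0 or a sample was left out. With median scaling Nfe2l1 differed by -0.47 and in the authors' deposited values by -0.37, without passing (limma, adjusted p = 0.146 and 0.112).

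Of 2 tested genes of ubiquitin activation 1 rose, against 12.1% of all tested genes. Uba6, an activating enzyme for ubiquitin and the ubiquitin-like FAT10, had values of 12.00, 11.31 and 11.30 in cLP samples, against 9.58, 9.88 and 9.36 in MLN samples. It rose by 1.93 ± 0.28, or 3.81-fold, with groups apart (adjusted p = 0.00246). Of 11 tested shuttle receptors and segregase cofactors 1 rose and 1 fell, against 12.1% and 20.4% of all tested genes. Sqstm1, the p62 receptor that carries ubiquitinated cargo to autophagosomes, had values of 12.91, 12.54 and 12.91 in cLP samples, against 10.81, 10.87 and 10.87 in MLN samples. It rose by 1.94 ± 0.21, or 3.83-fold (adjusted p = 0.000848), and Uba6 and Sqstm1 passed under each of the 16 alternatives. Faf2, a cofactor of degradation at the endoplasmic reticulum, fell by 1.44 ± 0.47, just past the threshold (adjusted p = 0.0498; 0.00447 to 0.159 over its alternatives, of which 7 of 16 passed). Its call ended without any sample but cLP sample 3.

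The COP9 signalosome is a relative of the lid that acts on cullin ubiquitin ligases. Of its 9 tested genes 1 passed, against 32.5% of all tested genes. Cops7a fell by 1.75 ± 0.22 through its brightest probe (adjusted p = 0.00141). Its 3 other probes differed by -0.27, -0.20 and -0.0020, and with the mean of its probes it differed by -0.55 (adjusted p = 0.195; 0.000940 to 0.195 over its alternatives). The other 8 genes ran from -0.36 to 0.56 and did not pass (adjusted p = 0.121 to 0.966), with a median of -0.03 over the 9.

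**Figure D4:**
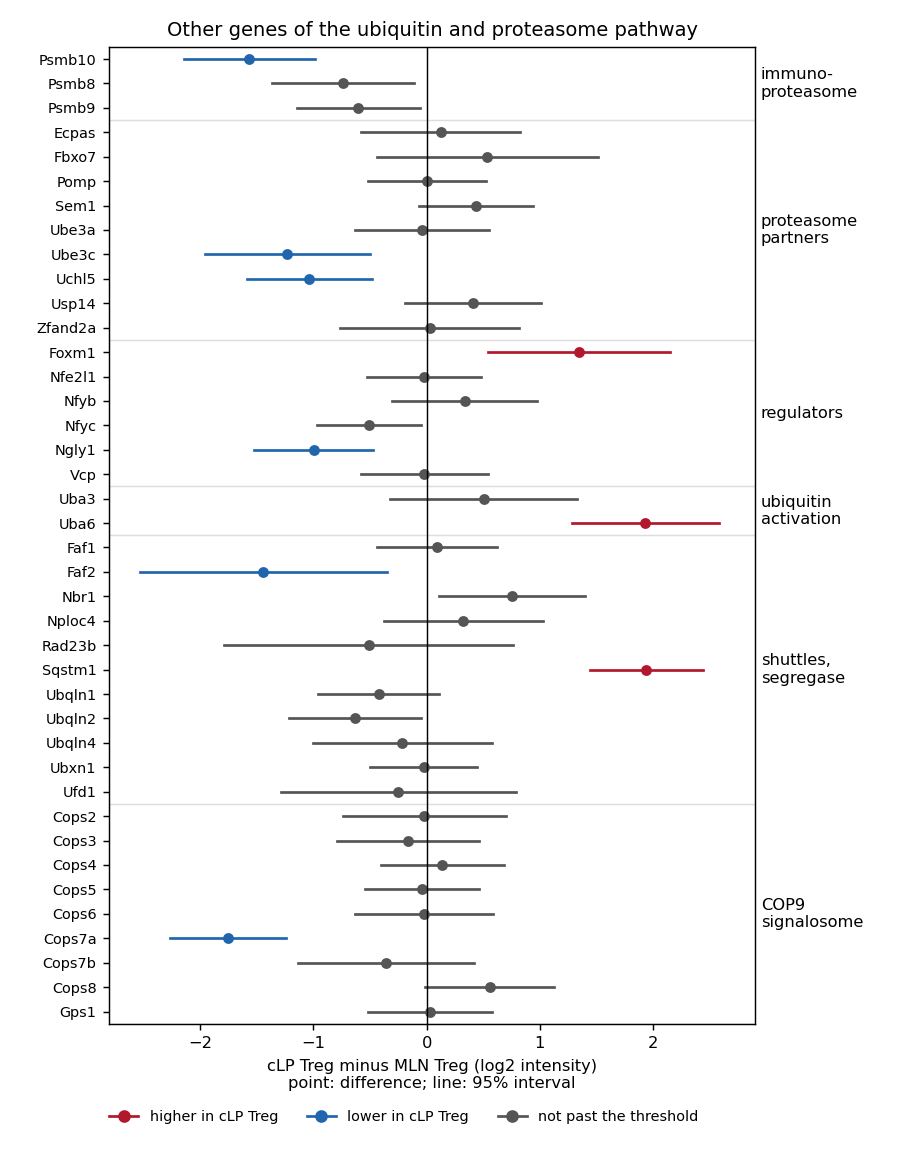
Differences between cLP Treg and MLN Treg (x axis, log2 intensity) for the other tested genes of the ubiquitin and proteasome pathway, by list. Points are differences and lines 95% intervals; Uba6 (1.93), Sqstm1 (1.94) and Foxm1 (1.34) stand to the right, and Psmb10 (-1.56), Cops7a (-1.75), Faf2 (-1.44), Ube3c (-1.23), Uchl5 (-1.04) and Ngly1 (-0.996) to the left.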

How the data were processed

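Illumina bead arrays of 6 samples were analysed, grouped by the source label, since MLN is written MSN in the sample titles. The authors deposited linear probe intensity values exported with GenomeStudio (1.6.0 according to the submitters' processing notes) from RNA amplified and labelled with biotin, per the labels' protocols. The deposited detection column follows the signal upwards (lowest rank correlation 0.991). It was taken for a fraction, that of negative controls below the probe, and 1 minus this fraction served as detection p. The authors' series matrix holds log2 values, which equal the log2 signal less that of the 75th percentile on the same array, without gene centring. All 45281 probes were matched between the tables by their values on the 6 arrays. This match settled the scale, the centring and the direction of the matrix. The column medians were -0.596, -0.689 and -0.661 for cLP samples 1 to 3, and -0.728, -0.607 and -0.848 for MLN samples 1 to 3. The platform annotation gave 34885 probes 1 symbol, 18 several and 10378 none.

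Background was removed by normexp, whose control moments were derived from detection p (offset 16), and intensities were quantile-normalised in limma 3.58.1 under R 4.3.3. The fit (lmFit, eBayes, no block) ran on the brightest tested probe of each gene, 9157 genes in all, and on all 13538 tested probes with a symbol. The script was tested on simulated data. The members, lists and motifs were chosen with earlier results of these data known. Values in all samples are given for the passing members with the largest differences, the 4 members nearest to no difference and the catalytic subunits, and for passing genes of the pathway lists differences are given. Psmg4, Psme1, Psme4, Psmd7, Psmd4, Psmd9, Pomp and Nfe2l1 were added after their values were seen. The sample values of Psmb10, Uba6 and Sqstm1 are printed as well, outside this plan. The number of arrays limits the precision. Alternatives covered background correction, normalisation, the detection filter, the probe of a gene, centring, the replicate block and each sample left out. No batch was fitted, since no label or header names a chip or scan.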

Additional observations from a re-analysis of the deposited data

How the results depend on the processing

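Calls of Psmg1, Psmg2 and Psmd11 held under all 16 alternatives. Of 828 values of single genes under an alternative 701 kept their direction and side of the threshold, 33 passed it newly, 33 no longer passed and 61 changed sign; the cause was not tested. Members lower in cLP Treg numbered 5 without background correction, 5 with normexp by maximum likelihood and an offset of 50, 12 with median scaling and 13 in the authors' deposited values, against 3. Members higher numbered 2 with the mean of a gene's probes, against 1. The members' median was -0.55 with median scaling. Leaving out 1 sample gave 1808 to 3223 genes past the threshold, against 2974, with 1808 without MLN sample 1 and 1910 without MLN sample 2.

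Signs turned in genes that did not pass, among them Psmc4 and Psmd1, whose differences were 0.29 each. With median scaling the differences were -0.34 for Psmb6, -0.25 for Psmb7, -0.13 for Psmc4, -0.23 for Psmc5, -0.075 for Psmd1, -0.32 for Psmd12, -0.36 for Psmd13 and -0.42 for Pomp. In the authors' values they were -0.25 for Psmb6, -0.14 for Psmb7, -0.054 for Psmc4, -0.15 for Psmc5, -0.21 for Psmd12, -0.28 for Psmd13 and -0.33 for Pomp. With the mean of a gene's probes they were 0.032 for Psma7, -0.00092 for Psmd1, 1.02 for Psmd7 and 0.0088 for Psme3ip1. With the median difference set to 0 they were 0.18 for Psma7, 0.093 for Psmb1, 0.026 for Psmb4, 0.026 for Psmc1, 0.025 for Psmc3, 0.041 for Psmd4, 0.15 for Psmd7, 0.18 for Psmd8, 0.19 for Psme3ip1 and 0.19 for Nfe2l1.

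Leaving out 1 sample turned the sign in 12 genes, with ranges of -0.32 to 0.16 for Psma7, -0.084 to 0.23 for Psma8, -0.29 to 0.031 for Psmb1, -0.088 to 0.46 for Psmb7, -0.032 to 0.76 for Psmc3ip, -0.33 to 0.092 for Psmd7, -0.24 to 0.096 for Psmd8, -0.091 to 0.43 for Psmd12, -0.10 to 0.16 for Psmd13, -0.36 to 0.21 for Psme3ip1, -0.11 to 0.10 for Nfe2l1 and -0.072 to 0.13 for Pomp.

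Samples of the same number did not deviate together (r = -0.16, -0.10 and -0.01), so the replicate block is given here alone. With the block 1 member was higher, 2 were lower, the members' median stayed -0.22 and 2453 genes passed, and the call of Psmg3 ended (adjusted p = 0.0570). The call of Psmg3 also ended with no detection filter (adjusted p = 0.106) and with the median difference set to 0 (0.0690). Signal over background limits the dim probes, and 7 member genes had no tested probe.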
